A study of Mus musculus with 16 samples.

Results

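The genes of the tumor necrosis factor (TNF) superfamily, of its receptors and of the TRAF adaptors were followed in the D10 cell line, a mouse T helper type 2 (Th2) line. The members were taken by symbol: every array row whose symbol starts with Tnfsf or Tnfrsf, the numbered Traf genes, and Tnf, Lta, Ltb, Ltbr, Cd27, Cd70, Cd40, Cd40lg, Fas and Fasl. This gave 49 of the 18138 genes on the arrays, namely 17 ligands, 25 receptors and 7 TRAFs. D10 is a fast-growing variant of a single Th2 clone and was kept in interleukin-2, so the data describe 1 clonal line. The study asked which genes depend on the kinase Akt when helper T cells are activated. Cells were either left without inhibitor (control) or held for 1 h in 10 µM Akti1/2, an allosteric inhibitor of Akt1 and Akt2, and then stimulated through CD3 and CD28 with biotinylated antibodies and streptavidin for 0, 2, 6 or 12 h. The 8 groups of 2 arrays each therefore share genotype and culture medium and differ, by their labels, in inhibitor and time. The study's own text describes the control cells in one place as untreated and in another as given solvent, and it does not state whether the duplicates were separate cultures, so the p-values measure only the spread between these arrays, which may be technical.

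TNF superfamily ligands are mostly trimeric membrane proteins that can be shed, and their receptors carry cysteine-rich domains outside the cell. Receptors with a death domain, such as Fas, can recruit caspases. Many of the others bind TRAF adaptors, which pass the signal to NF-κB and to stress-activated kinases. In helper T cells the family serves costimulation (4-1BB and its ligand, GITR), help to other cells (lymphotoxins, BAFF, RANKL) and the removal of activated cells (Fas, TRAIL).

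The 16 Illumina mouse RefSeq arrays lay on 2 chips, each with 1 array of every group. A gene counted as above background on an array if a share under 0.01 of the 798 negative controls was as bright or brighter. Between 6288 and 6907 genes passed on an array, and the median gene, at 119.4 to 148.6 units, lay close to the mean negative control of 111 to 139 units. Of the T cell markers, 5 of 7 were above background on all 16 arrays, Cd4 was on 13 and Thy1 on none. Of the Th2 markers, 6 of 7 were above background on all arrays, and Ccr4 on none. No marker of Th1, regulatory T, CD8 T, myeloid or natural killer cells was above background on any array, and 1 of 4 B cell markers (Ms4a1) was on 1 array. In a bulk measurement of this kind, fewer cells that express a gene and less RNA per cell cannot be told apart.

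Of the 49 members, 23 were above background on at least 2 arrays and were tested: 8 ligands, 8 receptors and all 7 TRAFs. Among them, 14 were above background on every array and 9 on 2 to 15 arrays. Tnfrsf4 (OX40) and Tnfsf8 (CD30 ligand) passed on 1 array each, one of the 12 h control arrays and one of the 6 h Akti1/2 arrays. The other 24 passed on none. Tnfrsf13c just met the requirement, through both control arrays at 12 h, followed by Traf5, which passed on 4 arrays. The ligands below the requirement were Cd40lg, Cd70, Fasl, Tnfsf12, Tnfsf12-tnfsf13, Tnfsf15, Tnfsf18, Tnfsf4 and Tnfsf8. The receptors below it were Cd27, Cd40, Ltbr, Tnfrsf11b, Tnfrsf13b, Tnfrsf14, Tnfrsf17, Tnfrsf19, Tnfrsf19l, Tnfrsf1a, Tnfrsf1b, Tnfrsf21, Tnfrsf22, Tnfrsf23, Tnfrsf25, Tnfrsf4 and Tnfrsf8. Their intensities ran from 93.1 to 174.3 units over all 16 arrays, and no change is reported for them.

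**Figure D1:**
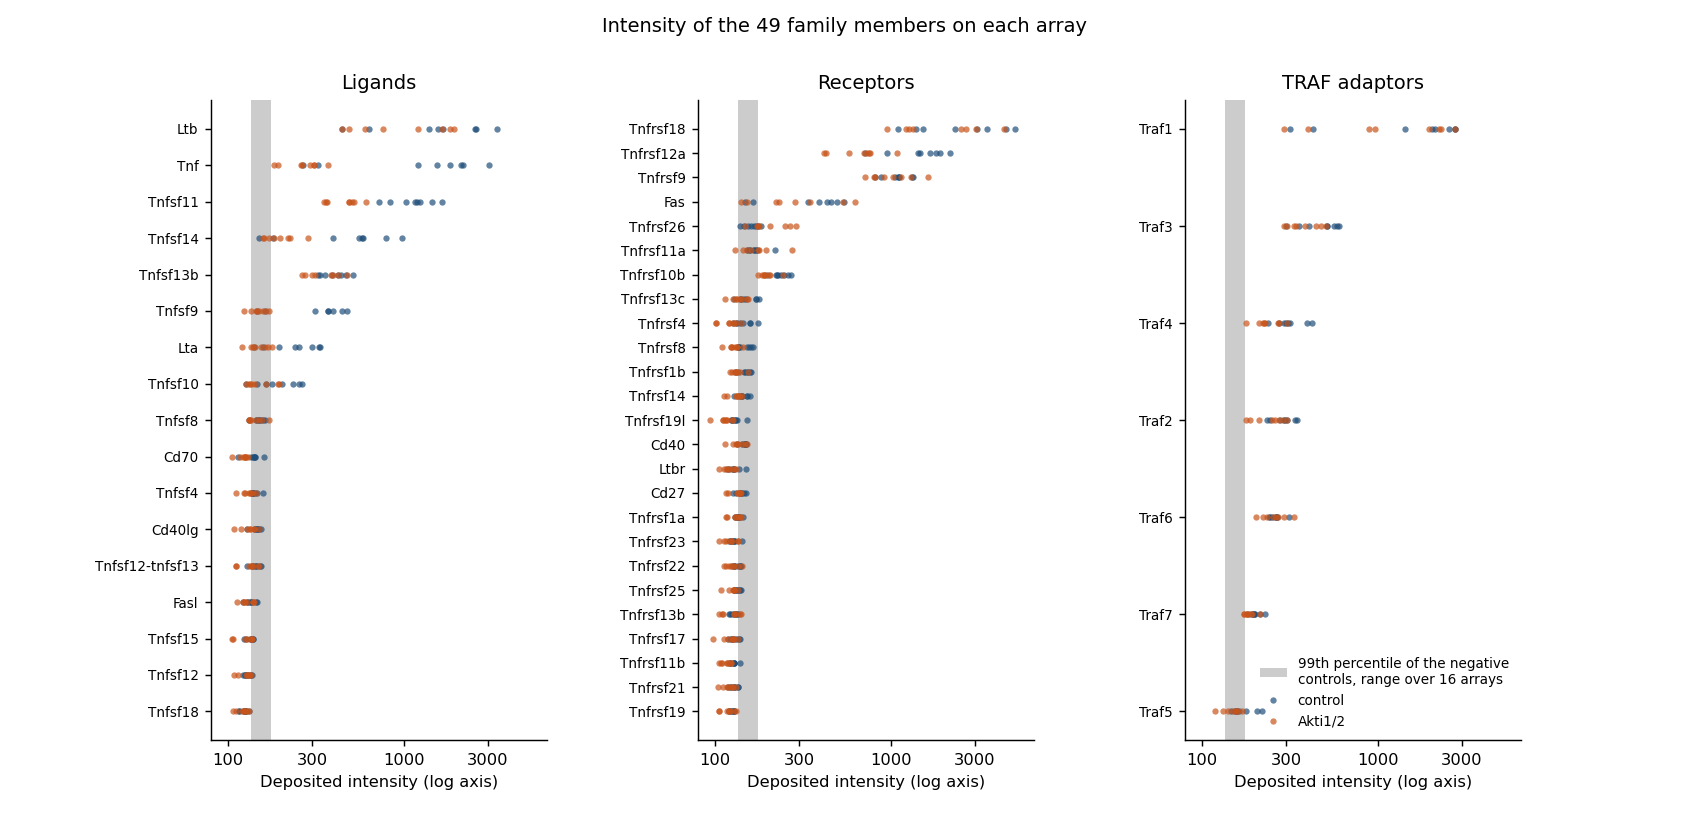
Deposited intensity of each of the 49 members on each of the 16 arrays (log axis, arbitrary units), by role, control arrays in blue and Akti1/2 arrays in orange. The gray band spans, over the arrays, the intensity that a share of 0.01 of the negative controls exceeds, and 23 members passed it on at least 2 arrays, among them all 7 TRAFs.

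Both receptors of TNF itself, Tnfrsf1a and Tnfrsf1b, were below the requirement, as were the receptors of LIGHT and of the lymphotoxin heterotrimer (Tnfrsf14 and Ltbr). The array row of Tnfrsf1b carries a symbol but no gene identifier or definition. A level below the requirement does not show that a transcript was absent. Measured on both sides were the pairs Tnfsf9 and Tnfrsf9 (4-1BB ligand and 4-1BB), Tnfsf11 and Tnfrsf11a (RANKL and RANK), Tnfsf10 and Tnfrsf10b (TRAIL and a receptor of it) and Tnfsf13b and Tnfrsf13c (BAFF and the BAFF receptor). For Fas, GITR (Tnfrsf18) and Fn14 (Tnfrsf12a) the receptor was measured and the ligand (Fasl, Tnfsf18 and Tnfsf12, which encodes TWEAK) was not.

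RefSeq promoter windows on GRCm38.p6, 300 bases from 250 before the transcription start, were at hand for 20 of the 23 tested members (22 windows). They were searched on both strands for the NF-κB consensus and for the AP-1 consensus TGANTCA, the motifs of factors that T cell activation switches on. The NF-κB consensus stood in 3 of the 22 windows (13.6%) and in 8.46% of the 32851 windows of all genes. The AP-1 consensus stood in 5 of the 22 (22.7%) and in 7.81% of all windows. Those 5 windows belong to 4 of the 20 members, because the windows of the 2 starts of Tnfsf13b overlap and hold the same AP-1 site. The 250 bases before the start are shown for some members. Ltb and Traf3 are shown because they hold the NF-κB consensus, and Tnfsf14 and Fas because they hold the AP-1 consensus. Tnf, which holds neither, is shown because its response to stimulation was among those that differed most with Akti1/2. Traf1 and Tnfrsf18, whose responses were larger than that of Traf3, hold neither motif in their windows and are not shown. Capitals mark the motif. In Ltb (chr17:35194257-35194506, plus strand) it begins at base -87 counted from the start, in Traf3 (chr12:111166120-111166369, plus strand) at base -10, in Tnfsf14 (chr17:57194182-57194431, minus strand) at base -160 and in Fas (chr19:34290409-34290658, plus strand) at base -211. The Tnf window is chr17:35202008-35202257 on the minus strand.
Ltb: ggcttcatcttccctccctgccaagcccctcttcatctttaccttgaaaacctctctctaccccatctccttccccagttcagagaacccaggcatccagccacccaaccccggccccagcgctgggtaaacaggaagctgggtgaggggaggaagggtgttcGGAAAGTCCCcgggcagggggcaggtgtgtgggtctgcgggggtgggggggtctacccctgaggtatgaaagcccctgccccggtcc
Traf3: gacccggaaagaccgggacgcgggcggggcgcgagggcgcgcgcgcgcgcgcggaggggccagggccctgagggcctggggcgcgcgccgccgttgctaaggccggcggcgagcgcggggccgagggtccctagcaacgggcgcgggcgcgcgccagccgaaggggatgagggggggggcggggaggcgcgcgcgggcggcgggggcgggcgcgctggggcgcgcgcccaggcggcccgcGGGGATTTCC
Tnfsf14: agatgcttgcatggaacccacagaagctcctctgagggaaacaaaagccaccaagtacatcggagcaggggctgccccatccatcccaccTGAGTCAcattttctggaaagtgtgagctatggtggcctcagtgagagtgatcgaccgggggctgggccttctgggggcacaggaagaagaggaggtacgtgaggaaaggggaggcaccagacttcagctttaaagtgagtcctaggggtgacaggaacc
Fas: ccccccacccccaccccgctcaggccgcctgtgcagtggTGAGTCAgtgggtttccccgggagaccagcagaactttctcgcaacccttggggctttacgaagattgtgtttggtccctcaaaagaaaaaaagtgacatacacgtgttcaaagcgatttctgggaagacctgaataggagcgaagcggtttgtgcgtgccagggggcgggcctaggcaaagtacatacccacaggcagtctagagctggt
Tnf: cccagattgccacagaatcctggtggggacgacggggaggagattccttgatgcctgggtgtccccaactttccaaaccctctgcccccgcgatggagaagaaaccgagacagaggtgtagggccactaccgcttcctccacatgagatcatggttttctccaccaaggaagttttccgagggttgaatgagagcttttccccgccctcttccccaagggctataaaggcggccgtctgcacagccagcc
The other windows with a match were a second start of Tnfrsf9, which holds both motifs, and the overlapping pair of Tnfsf13b with its 1 shared AP-1 site. A match describes these letters only and shows neither binding nor activity, and no match says only that the letters are not in this window.

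Levels are given below as background-corrected, quantile-normalized log2 intensities, replicate 1 before replicate 2, and differences as log2 differences with their standard error (SE) from a limma fit of all 8 groups. A gene was called where its p, adjusted by Benjamini-Hochberg over the 7395 genes tested, was under 0.05. Because a level cannot be set against that of another probe, each gene is compared only with itself. Where a gene was at background on both arrays of a group, the fold is given as a bound.

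Counted over the 14 members above background on every array, CD3/CD28 stimulation of control cells raised 8 and lowered none at 2 h. Of all genes tested, 10.3% were called in this comparison, 4.42% higher and 5.86% lower. At 6 h it raised 9 of the 14 and lowered none (27.5% of all genes called, 12.1% higher and 15.4% lower), and by 12 h 10 had risen and 1 had fallen (27.8%, 12.7% and 15.1%). The median log2 difference of the 14 was 0.66, 0.68 and 0.77, beside -0.02, -0.02 and -0.01 over all genes tested. In Akti1/2-treated cells, set against their own 0 h group, the 14 split into 6 higher and 3 lower at 2 h (38.6% of all genes called, 17.8% higher and 20.9% lower). The same split was found at 6 h (33.3%, 15.4% and 17.9%), and by 12 h there were 6 higher and 2 lower (44.5%, 21.1% and 23.4%). These shares include dim genes. With only the 5544 genes above background on all 16 arrays tested, 748, 1762 and 1864 were called in control cells, 329, 776 and 853 of them higher. With Akti1/2 2548, 2161 and 2877 of the 5544 were called, 1132, 973 and 1311 of them higher. Over the 23 tested members, 13, 15 and 16 rose in control cells at the 3 times, and 8, 11 and 12 rose with Akti1/2. The 9 members that pass only on some arrays were let in by the groups in which they are high, so the larger set is not a neutral sample. The split over all genes depended on the scaling. With scaling to an equal array mean in place of quantile normalization, 223 of the 860 genes called in control cells at 2 h were higher, in place of 327 of 760, and at 6 h 645 of 2105 in place of 897 of 2037. Of the 14 members, 7 were then higher at 2 h and 8 at 6 h, where 1 was lower.

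Akti1/2-treated cells were set against control cells of the same time. At 2 h 8 of the 14 differed, all lower with the inhibitor (28.4% of all genes called, 13.6% higher and 14.9% lower). At 6 h 7 of the 14 differed, again all lower (37.5%, 18.8% and 18.7%). By 12 h 5 were lower and 2 higher (49%, 24.2% and 24.8%). The difference in response subtracts a gene's change since 0 h in control cells from its change since 0 h in Akti1/2-treated cells, so that a value below 0 marks a smaller rise or a larger fall with the inhibitor. It was called below 0 in 5 of the 14 at 2 h (8.41% of all genes called, 4.25% above and 4.16% below 0), in 6 at 6 h (19.5%, 10.3% and 9.24%) and in 4 by 12 h (32.5%, 16.3% and 16.2%), and above 0 in none of them. The median difference in response of the 14 was -0.45, -0.44 and -0.29, beside -0.01, -0.01 and -0.02 over all genes. With only the 5544 genes above background on all 16 arrays tested, 1947, 2442 and 3119 were called between treatments, 894, 1181 and 1496 of them higher. In the difference in response 665, 1412 and 2197 of the 5544 were called, 319, 721 and 1062 of them above 0. Over the 23 tested, 8, 11 and 10 were called in the difference in response, of which 0, 1 and 1 were above 0. Scaling to the same mean moved the split over all genes here too. Of all genes called between treatments at 6 h, 1718 of 2825 were then higher with Akti1/2, in place of 1390 of 2776. For the difference in response 390 of 603 genes were above 0 at 2 h, 1156 of 1608 at 6 h and 1478 of 2439 at 12 h, in place of 314 of 622, 762 of 1445 and 1205 of 2400. Under that scaling 4, 5 and 4 of the 14 members were called below 0 and none above.

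**Figure D2:**
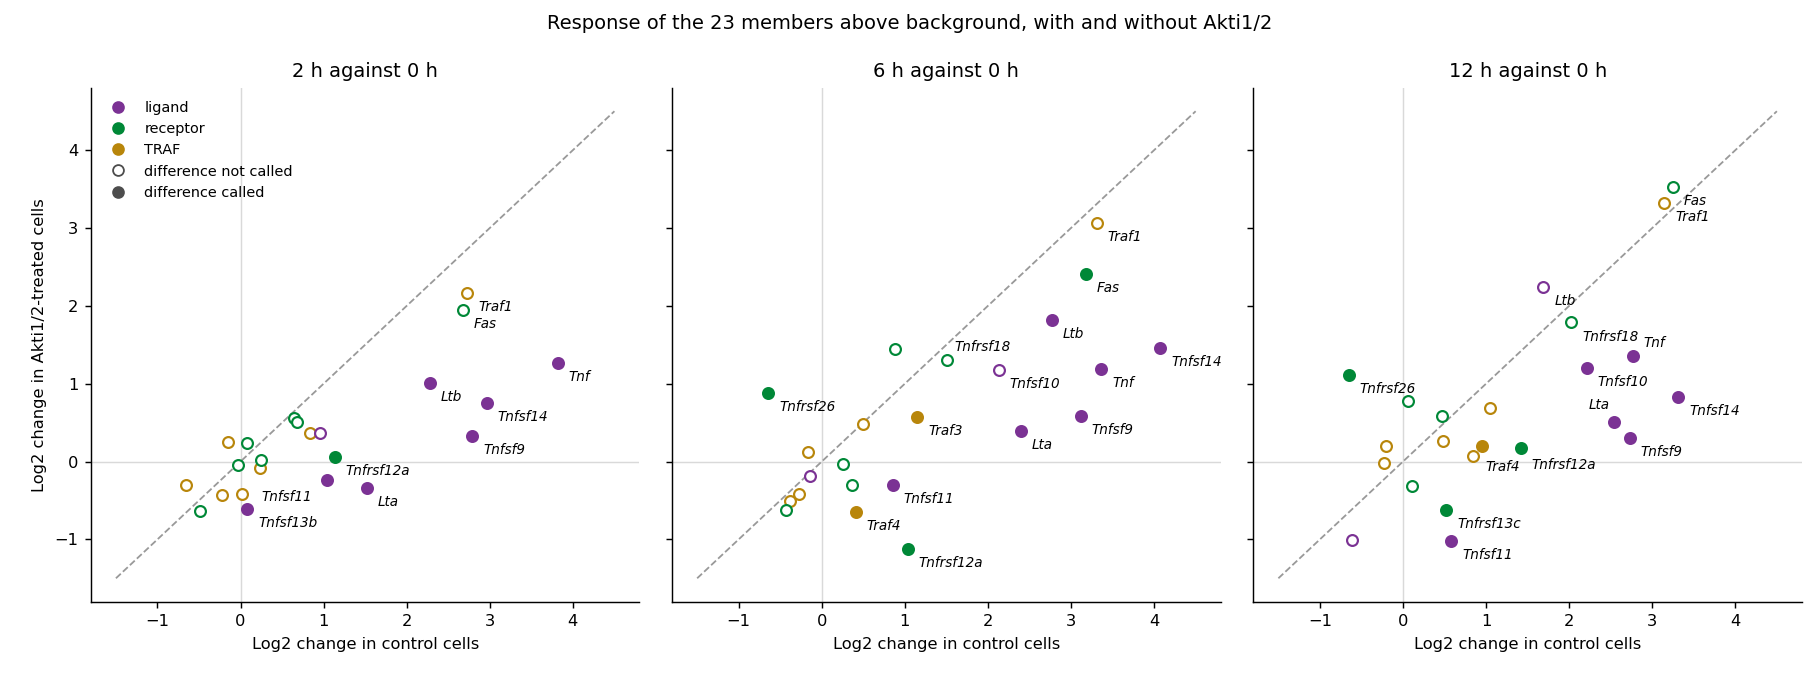
Log2 change from 0 h in control cells (x axis) against that in Akti1/2-treated cells (y axis) for the 23 tested members at 2, 6 and 12 h. Filled points were called in the difference between the 2 responses, the dashed line marks equal responses, and the ligands other than Ltb at 12 h lie below it.

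Before stimulation, no member was called between the pretreated and the control cells. At 0 h limma with Benjamini-Hochberg adjustment called 0 of the 23 tested members (of all genes it called 0.0541%, 0.0406% higher and 0.0135% lower), and 2 members had an unadjusted p under 0.05. The lowest adjusted p was 0.420, for Tnf, which stood at 6.08 and 6.58 with Akti1/2 and at 7.38 and 7.39 without (log2 difference -1.06, SE 0.24). No member passed a J5 score of 20 in that comparison, and none was called under any alternative.

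Of the ligands, Tnf, Ltb, Tnfsf11 and Tnfsf13b were above background on every array. Of these 4, 3 rose in control cells at each of the 3 times (4.42%, 12.1% and 12.7% of all genes rose), and the difference in response was called below 0 in 4 at 2 h, 3 at 6 h and 2 at 12 h (4.16%, 9.24% and 16.2% of all genes). The other 4 entered the test through stimulated groups. Lta, Tnfsf9 and Tnfsf10 were at background in both 0 h groups and Tnfsf14 was above it on 1 of 2 arrays in each, so that a rise in them was partly fixed by the filter. With them included, 7 of the 8 tested rose in control cells at each time. The exception was Tnfsf13b, which was not called at 2 and 6 h and fell by 12 h. With Akti1/2 3 of the 8 rose at 2 h, 4 at 6 h and 5 at 12 h (17.8%, 15.4% and 21.1% of all genes). Called lower with Akti1/2 were 1, 0 and 2 of the 8 (20.9%, 17.9% and 23.4%). Called below 0 in the difference in response were 7 of the 8 at 2 h and 6 at each later time.

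Tnf encodes the founding cytokine of the family, a mediator of inflammation. In control cells its log2 level was 7.38 and 7.39 at 0 h, 11.30 and 11.10 at 2 h, 10.76 and 10.73 at 6 h, then 10.07 and 10.23 at 12 h. With Akti1/2 it was 6.08 and 6.58 at 0 h, 7.52 and 7.66 at 2 h, 7.78 and 7.24 at 6 h, then 7.30 and 8.08 at 12 h. Every stimulated control array lay above every Akti1/2 array, and the stimulated Akti1/2 arrays lay around the level of unstimulated control cells. Tnf rose 14.1-fold at 2 h, 10.3-fold at 6 h and 6.81-fold at 12 h in control cells, and 2.40-fold, 2.27-fold and 2.57-fold with Akti1/2. Its difference in response was -2.56 at 2 h, -2.18 at 6 h and -1.41 by 12 h (SE 0.34, adjusted p of 0.0018, 0.00116 and 0.00763, limma). From 2 to 12 h the level fell in control cells by 1.05 (adjusted p = 0.00629, limma), a call lost without control replicate 1 at 12 h (adjusted p = 0.0515).

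Lta encodes lymphotoxin-α, a soluble cytokine that also joins lymphotoxin-β on the cell surface, and Lta, Tnf and Ltb are neighbors on chromosome 17. Control arrays read 5.09 and 4.96 at 0 h, 6.84 and 6.25 at 2 h, 7.62 and 7.22 at 6 h, then 7.54 and 7.61 at 12 h. The Akti1/2 arrays read 5.38 and 4.97 at 0 h, 4.89 and 4.78 at 2 h, 5.56 and 5.57 at 6 h, then 5.68 and 5.69 at 12 h. Lta was at background in both 0 h groups and in the 2 and 6 h Akti1/2 groups, and every stimulated control array stood above every Akti1/2 array. It rose at least 1.88-fold, 3.44-fold and 3.82-fold in control cells at 2, 6 and 12 h (adjusted p of 0.000274, 2.51e-06 and 1.43e-06, limma). Set against Akti1/2-treated cells, control cells were at least 2.13-fold higher at 2 h and 3.56-fold higher at 6 h, and 3.69-fold higher at 12 h where both were measured. Between the 2 responses the difference was -1.86, -2.01 and -2.03 (SE 0.27, adjusted p of 0.00301, 0.000495 and 0.000165, limma), with 2 or 3 of the 4 groups in it at background. With Akti1/2, Lta was called at 12 h against 0 h (at least 1.02-fold higher, adjusted p = 0.0444, limma), a call lost without replicate 2 of the 0 h or either replicate of the 12 h Akti1/2 cells (adjusted p 0.127 to 0.310).

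Ltb encodes lymphotoxin-β, the membrane partner of lymphotoxin-α. The control course ran through log2 levels of 8.68 and 8.46 at 0 h, 11.03 and 10.67 at 2 h, 11.45 and 11.22 at 6 h, then 10.27 and 10.25 at 12 h. Under the inhibitor the level was 8.46 and 8.61 at 0 h, 9.61 and 9.49 at 2 h, 10.24 and 10.46 at 6 h, then 10.65 and 10.91 at 12 h. The order of the groups turned over time: the control arrays were the higher at 2 and 6 h, and the Akti1/2 arrays the higher at 12 h, with no overlap at any of these times. In control cells the rise was 4.85-fold at 2 h, 6.80-fold at 6 h and 3.23-fold at 12 h, and with Akti1/2 it was 2.02-fold, 3.53-fold and 4.74-fold. Between 2 and 12 h Ltb fell by 0.59 in control cells (adjusted p = 0.0117, limma) and rose by 1.23 with Akti1/2 (adjusted p = 4.46e-05). At 12 h the Akti1/2 level was higher by 0.52 (SE 0.15, adjusted p = 0.0129, limma). That call was lost without replicate 1 or 2 of the control or replicate 2 of the Akti1/2 cells at 12 h (adjusted p 0.0519 to 0.109), and the fall in control cells without replicate 1 at 2 h or either replicate at 12 h (adjusted p 0.0570 to 0.108).

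Tnfsf14 encodes LIGHT, a costimulatory ligand of activated T cells. Without inhibitor the log2 level was 5.65 and 5.26 at 0 h, 8.60 and 8.24 at 2 h, 9.63 and 9.44 at 6 h, then 8.86 and 8.68 at 12 h. Pretreated cells stood at 5.57 and 5.72 at 0 h, 6.37 and 6.42 at 2 h, 7.01 and 7.19 at 6 h, then 6.48 and 6.46 at 12 h. All stimulated control arrays lay above all Akti1/2 arrays, and both courses were highest at 6 h. At 0 h, 1 of the 2 arrays of each group was above background. The rise was 7.79-fold, 16.9-fold and 9.94-fold at 2, 6 and 12 h in control cells, and 1.68-fold, 2.74-fold and 1.78-fold with Akti1/2. The response with Akti1/2 minus that without was -2.21 at 2 h, -2.62 at 6 h and -2.48 by 12 h (SE 0.22, adjusted p of 0.000374, 2.29e-05 and 1.19e-05, limma), and it was called with any 1 array left out.

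Tnfsf9 encodes the ligand of the costimulatory receptor 4-1BB. In control cells its log2 level was 5.22 and 5.14 at 0 h, 8.22 and 7.72 at 2 h, 8.39 and 8.20 at 6 h, then 8.01 and 7.81 at 12 h. With Akti1/2 it was 4.78 and 5.29 at 0 h, 5.0 and 5.72 at 2 h, 5.63 and 5.60 at 6 h, then 5.38 and 5.30 at 12 h. The stimulated control arrays stood apart from all others, while the Akti1/2 arrays stayed at or close to background at every time. Tnfsf9 rose at least 5.04-fold, 6.31-fold and 4.83-fold in control cells (adjusted p of 8.97e-06, 1.23e-06 and 4.29e-06, limma). With Akti1/2 the log2 differences of 0.32, 0.58 and 0.31 against 0 h were not called (adjusted p of 0.289, 0.0718 and 0.314, limma). The first was called without replicate 1 at 2 h (0.69, adjusted p = 0.0397, limma) and was -0.04 without replicate 2 at 2 h, and the second was called without replicate 2 of the Akti1/2 cells at 0 h (0.84, adjusted p = 0.0423). For the difference in response the fit gave -2.47, -2.53 and -2.42 (SE 0.33, adjusted p of 0.00171, 0.000374 and 0.000186, limma), with both 0 h groups at background.

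Tnfsf11 encodes RANKL, which drives osteoclast formation and supports dendritic cells. Control arrays read 9.17 and 9.34 at 0 h, 10.35 and 10.23 at 2 h, 10.20 and 10.04 at 6 h, then 9.82 and 9.85 at 12 h. The Akti1/2 arrays read 8.83 and 8.89 at 0 h, 8.81 and 8.44 at 2 h, 8.69 and 8.42 at 6 h, then 7.69 and 7.99 at 12 h. Every stimulated control array lay above, and every stimulated Akti1/2 array below, all 0 h arrays of its own course, and the 12 h Akti1/2 arrays were the lowest of all 16. Tnfsf11 rose 2.05-fold at 2 h, 1.81-fold at 6 h and 1.49-fold at 12 h in control cells, and it fell 2.03-fold at 12 h with Akti1/2 (adjusted p = 0.000161, limma). At 12 h control cells were 4.0-fold above Akti1/2-treated cells (adjusted p = 8.01e-07, limma). The difference in response was -1.27, -1.16 and -1.60 at the 3 times (SE 0.21, adjusted p of 0.00599, 0.00285 and 0.000168, limma). The rise in control cells at 12 h (adjusted p = 0.0122) was lost without replicate 1 at 0 h or either replicate at 12 h (adjusted p 0.0561 to 0.0958, limma).

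Tnfsf10 encodes TRAIL, a ligand of death receptors. The control course ran through log2 levels of 4.79 and 4.59 at 0 h, 5.46 and 5.84 at 2 h, 7.09 and 6.56 at 6 h, then 6.90 and 6.91 at 12 h. Under the inhibitor the level was 4.73 and 4.60 at 0 h, 5.26 and 4.81 at 2 h, 5.57 and 6.11 at 6 h, then 6.01 and 5.74 at 12 h. The control arrays were the higher at 6 and 12 h without overlap, and both groups were at background at 0 h. Tnfsf10 rose at least 2.28-fold by 6 h and 2.40-fold by 12 h without inhibitor, and with it at least 1.14-fold and 1.17-fold (adjusted p of 2.57e-05, 1.86e-05, 0.00168 and 0.000906, limma). At 2 h the rise of at least 1.01-fold in control cells (adjusted p = 0.0183) was lost without either replicate at 0 h or replicate 2 at 2 h (adjusted p 0.0664 to 0.146, limma). The difference in response was called at 12 h (-1.01, SE 0.32, adjusted p = 0.0284, limma), and leaving out any 1 of 6 of the 8 arrays in it ended the call (adjusted p 0.0517 to 0.0944). The exceptions were replicate 1 at 0 h among the control and replicate 1 at 12 h among the Akti1/2 arrays. At 6 h it was -0.96 and not called (adjusted p = 0.0514, limma), but was called at -1.23 without replicate 2 of either 6 h group (adjusted p of 0.0281 and 0.0219).

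Tnfsf13b encodes BAFF, a survival factor for B cells, and was the ligand that did not rise. Without inhibitor the log2 level was 8.32 and 8.19 at 0 h, 8.31 and 8.36 at 2 h, 8.24 and 7.99 at 6 h, then 7.77 and 7.51 at 12 h. Pretreated cells stood at 8.40 and 8.34 at 0 h, 7.85 and 7.66 at 2 h, 8.30 and 8.07 at 6 h, then 7.34 and 7.39 at 12 h. The groups overlapped at 6 h, and in both courses the 12 h arrays were the lowest. Tnfsf13b fell 1.53-fold at 12 h in control cells (adjusted p = 0.0043, limma), and 1.53-fold at 2 h and 2.01-fold at 12 h with Akti1/2 (adjusted p of 0.00373 and 6.74e-05). The call in control cells was lost without replicate 2 at 12 h (adjusted p = 0.0507, limma). A difference in response of -0.69 at 2 h (SE 0.19, adjusted p = 0.0398, limma) was lost with any array of the 0 h and 2 h groups left out other than replicate 1 of the 2 h Akti1/2 cells (adjusted p 0.0818 to 0.128).

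**Figure D3:**
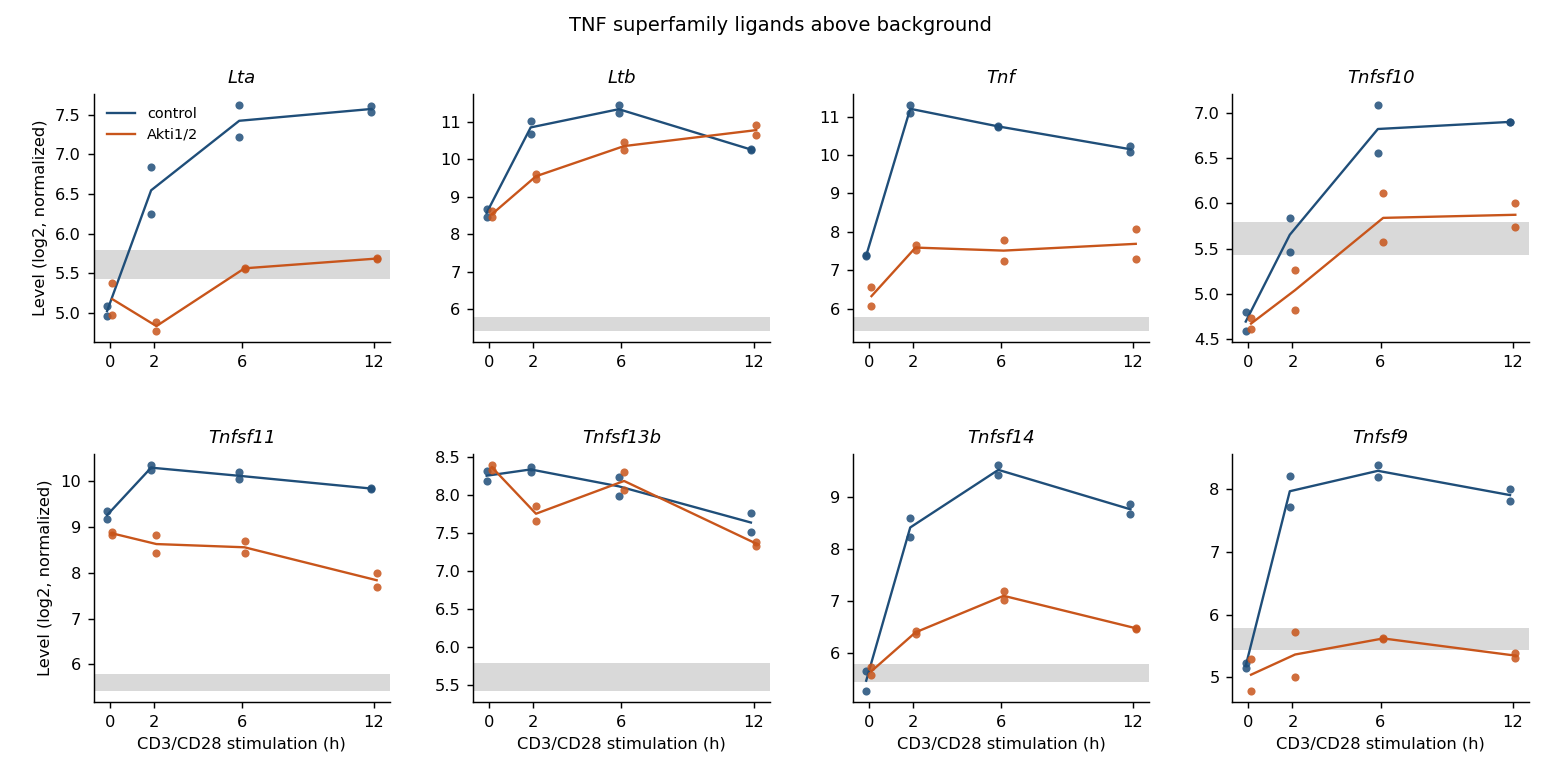
Log2 level of the 8 tested ligands by hours of CD3/CD28 stimulation, control cells in blue and Akti1/2-treated cells in orange. Points are single arrays, lines join the means of 2, and the gray band spans the lowest level above background on each array (5.43 to 5.79). Tnf, Lta, Tnfsf14, Tnfsf9 and Tnfsf11 are the higher in control cells at all 3 stimulated times, while the courses of Ltb cross before 12 h.

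Among the receptors the responses were mixed. Of the 4 above background on every array (Tnfrsf9, Tnfrsf10b, Tnfrsf12a and Tnfrsf18), 3 rose in control cells at 2 h, 2 at 6 h and 3 at 12 h (4.42%, 12.1% and 12.7% of all genes), and the difference in response was called for 1 at each time (8.41%, 19.5% and 32.5% of all genes). Fas, Tnfrsf11a, Tnfrsf13c and Tnfrsf26 were at background in some groups and entered through the others. Of all 8 tested, 4 rose at each time in control cells, and Tnfrsf26 fell at the later times. In pretreated cells the number higher was 3, 4 and 5 at 2, 6 and 12 h (17.8%, 15.4% and 21.1% of all genes). The number lower was 1, 2 and 1 (20.9%, 17.9% and 23.4%). Differences in response were called for Tnfrsf12a at all 3 times, for Fas at 6 h, for Tnfrsf13c at 12 h and for Tnfrsf26 at 6 and 12 h, which makes 1, 3 and 3 of the 8, and nothing is read from these counts.

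Fas is a death receptor that rises on activated T cells. In control cells its log2 level was 5.27 and 5.24 at 0 h, 7.96 and 7.91 at 2 h, 8.47 and 8.39 at 6 h, then 8.45 and 8.56 at 12 h. With Akti1/2 it was 4.97 and 5.53 at 0 h, 7.12 and 7.27 at 2 h, 7.65 and 7.66 at 6 h, then 8.74 and 8.81 at 12 h. At 2 and 6 h the control arrays were the higher, and at 12 h the Akti1/2 arrays were, with both 0 h groups at background. The rise of Fas was at least 4.91-fold, 6.93-fold and 7.28-fold without inhibitor and, with it, at least 2.91-fold, 4.01-fold and 8.73-fold (adjusted p of 3.49e-06 or lower, limma). At 2 and 6 h the level was lower with Akti1/2 by 0.74 and 0.77 (adjusted p of 0.00376 and 0.00157, limma), and the 12 h difference of 0.28 was not called (adjusted p = 0.148). Its difference in response was -0.73 at 2 h, -0.77 at 6 h and 0.28 by 12 h (SE 0.21, adjusted p of 0.0510, 0.0233 and 0.341, limma). The 6 h call was lost without either replicate of the 0 h control cells, replicate 2 of the 0 h Akti1/2 cells or control replicate 1 at 6 h (adjusted p 0.0588 to 0.0697). Replicate 1 of the 0 h Akti1/2 cells moved the others, with a called -1.01 at 2 h (adjusted p = 0.0112, limma) without it, and without replicate 2 of that group the 12 h value was 0.56 (adjusted p = 0.0270).

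Tnfrsf12a encodes Fn14, the receptor of TWEAK. Control arrays read 9.40 and 9.32 at 0 h, 10.50 and 10.48 at 2 h, 10.42 and 10.37 at 6 h, then 10.79 and 10.77 at 12 h. The Akti1/2 arrays read 9.25 and 9.50 at 0 h, 9.46 and 9.40 at 2 h, 8.40 and 8.09 at 6 h, then 9.69 and 9.41 at 12 h. All stimulated control arrays stood above all Akti1/2 arrays, and the 6 h Akti1/2 arrays were the lowest of the 16. Tnfrsf12a rose 2.19-fold, 2.05-fold and 2.67-fold in control cells, and with Akti1/2 it fell 2.19-fold at 6 h (adjusted p = 5.19e-05, limma). The changes with Akti1/2 of 0.06 at 2 h and 0.18 at 12 h were not called (adjusted p of 0.746 and 0.308, limma). Between the 2 responses the difference was -1.07 at 2 h, -2.16 at 6 h and -1.24 by 12 h (SE 0.19, adjusted p of 0.00738, 2.84e-05 and 0.000404, limma).

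Tnfrsf26 was called above 0 in the difference in response at 6 and 12 h. In the main setting no other member was. Ltb at 12 h (0.55, adjusted p = 0.0648, limma) was called above 0 under 3 alternatives, with quantile normalization without background correction (0.50, adjusted p = 0.0292), with only genes above background on all 16 arrays (adjusted p = 0.0445) and with a fit of the compared groups alone (adjusted p = 0.0430). The last of these also called Tnfrsf11a at 12 h (0.72, adjusted p = 0.0440, in place of 0.183, limma). The control course of Tnfrsf26 itself ran through log2 levels of 5.33 and 5.97 at 0 h, 5.79 and 5.99 at 2 h, 5.21 and 4.81 at 6 h, then 4.92 and 5.07 at 12 h. Under the inhibitor the level was 5.96 and 6.13 at 0 h, 5.81 and 6.33 at 2 h, 6.82 and 7.04 at 6 h, then 7.15 and 7.17 at 12 h. The control cells were at background at 6 and 12 h, and every Akti1/2 array at those times lay above every control array. Akti1/2-treated cells were at least 2.37-fold higher at 6 h and 2.73-fold higher at 12 h (adjusted p of 3.76e-05 and 6.63e-06, limma). The response with Akti1/2 minus that without was 1.53 at 6 h and 1.77 by 12 h (SE 0.31, adjusted p of 0.00479 and 0.000992, limma), each with 1 of 4 groups at background. Against its own 0 h group the rise with Akti1/2 was 1.85-fold at 6 h (adjusted p = 0.0080, limma) and 2.17-fold at 12 h (adjusted p = 0.00128). The 6 h rise was lost without replicate 1 of the 0 h or replicate 2 of the 6 h Akti1/2 cells (adjusted p 0.0564 to 0.0575). The falls in control cells (-0.64 at 6 h and -0.65 at 12 h, adjusted p of 0.0449 and 0.0409, limma) went from 1 of 2 arrays above background to none. They were lost without replicate 2 at 0 h, and also without replicate 2 at 6 h or either replicate at 12 h (adjusted p 0.0914 to 0.380), and without replicate 2 at 0 h they were -0.32 and -0.34.

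Tnfrsf13c encodes the BAFF receptor, best known from B cells. It was above background only on the control arrays at 12 h, at a log2 level of 5.74 and 5.74. It thus entered the test through the group in which it is high, and its differences are given as a description. Its level was 5.45 and 5.0 at 0 h, 4.54 and 4.92 at 2 h then 4.78 and 4.81 at 6 h in control cells, and 5.32 and 5.55, 4.69 and 4.90, 5.01 and 4.60, and 4.59 and 5.04 with Akti1/2 at 0, 2, 6 and 12 h. At 12 h control cells were at least 1.11-fold above Akti1/2-treated cells, and the difference in response was -1.14 with 3 of 4 groups at background. The calls of this gene with Akti1/2 against 0 h lay between groups that were at background throughout and carry no fold.

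Tnfrsf18 encodes GITR, a costimulatory receptor. Without inhibitor the log2 level was 10.00 and 10.01 at 0 h, 10.86 and 10.52 at 2 h, 11.52 and 11.52 at 6 h, then 12.06 and 12.00 at 12 h. Pretreated cells stood at 10.13 and 9.93 at 0 h, 10.41 and 10.65 at 2 h, 11.43 and 11.22 at 6 h, then 11.95 and 11.71 at 12 h. The groups overlapped at 0 and 2 h, and both courses climbed from each time to the next. Tnfrsf18 rose 1.61-fold, 2.85-fold and 4.07-fold in control cells and 1.42-fold, 2.46-fold and 3.48-fold with Akti1/2. The difference in response was -0.18, -0.21 and -0.22 and was not called (adjusted p of 0.622, 0.507 and 0.424, limma). Its 95% interval was -0.62 to 0.26 at 2 h, -0.65 to 0.23 at 6 h and -0.66 to 0.21 at 12 h. The 2 h rise in control cells (adjusted p = 0.01) was lost without either replicate at 0 h or replicate 1 at 2 h (adjusted p 0.0664 to 0.0850, limma), and that with Akti1/2 (adjusted p = 0.0150) without replicate 2 at 0 h or at 2 h (adjusted p 0.114 to 0.116).

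The other 3 receptors were called in fewer comparisons and in no difference in response. Tnfrsf9 (4-1BB) was above background on every array, rose late in both courses, by 0.48 at 12 h in control cells (adjusted p = 0.00842, limma) and by 0.59 with Akti1/2 (adjusted p = 0.00134), and also rose from 2 to 12 h, by 0.50 and 0.63. In control cells the 12 h call was lost without replicate 1 at 0 h or at 12 h (adjusted p 0.0552 to 0.0855), and the rise from 2 to 12 h without replicate 2 at 2 h or replicate 1 at 12 h (adjusted p 0.0612 to 0.0698). Tnfrsf10b, a TRAIL receptor of the mouse, had a difference of -0.71 between Akti1/2-treated and control cells at 6 h (adjusted p = 0.00981, limma), a call lost without replicate 2 of the 6 h Akti1/2 cells. Its rises at 2 h, by 0.64 in control cells and 0.56 with Akti1/2 (adjusted p of 0.0484 and 0.0324), were lost without any 1 of the arrays compared, other than replicate 1 of the 2 h Akti1/2 cells (adjusted p 0.101 to 0.347). Without replicate 2 of the 2 h Akti1/2 cells the second was 0.20, and without replicate 1 it was 0.92. Tnfrsf10b fell from 2 to 12 h by 0.88 with Akti1/2 (adjusted p = 0.00199, limma), and by 0.52 to 1.24 with 1 array left out. In control cells it fell by 0.53 over the same time (adjusted p = 0.0495, limma), a call lost without any 1 of the 4 arrays (adjusted p 0.0832 to 0.231).

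Tnfrsf11a (RANK) was at background in both 0 h groups and rose with Akti1/2 at least 2.09-fold at 6 h (adjusted p = 0.00175, limma). It was called at least 1.5-fold higher in control cells at 6 h (adjusted p = 0.0335, limma) and 1.32-fold higher with Akti1/2 at 12 h (adjusted p = 0.0375). Both of these calls were lost without each array compared except the second control replicate at 6 h and the second Akti1/2 replicate at 0 h (adjusted p 0.0986 to 0.258, limma).

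**Figure D4:**
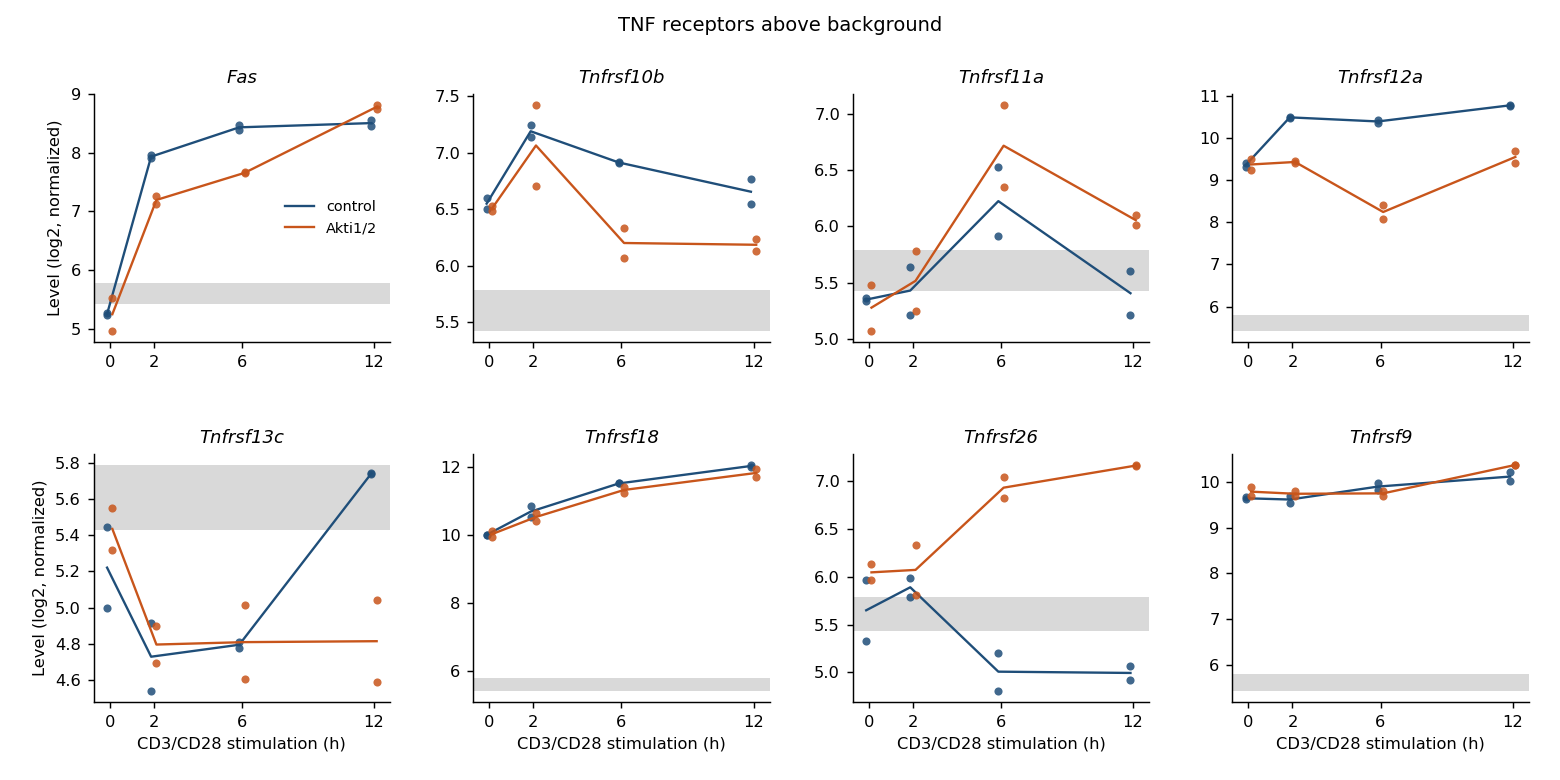
Log2 level of the 8 tested receptors by hours of CD3/CD28 stimulation, control cells in blue and Akti1/2-treated cells in orange, with single arrays as points, the mean of 2 as lines and the lowest level above background on each array as a gray band. Tnfrsf12a is the higher in control cells at every stimulated time, Tnfrsf26 is the higher with Akti1/2 at 6 and 12 h, and the courses of Tnfrsf18 and Tnfrsf9 run close together.

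All 7 TRAFs were measured. In control cells 2 rose at 2 h, 4 at 6 h and 5 at 12 h (4.42%, 12.1% and 12.7% of all genes), and none fell. In pretreated cells the number higher was 2, 3 and 2 (17.8%, 15.4% and 21.1% of all genes), and the number lower was 2, 2 and 0 (20.9%, 17.9% and 23.4%). Traf5, at background in 5 of the 8 groups, entered mainly through the 12 h control arrays, and without it 4 of 6 rose at 12 h. Differences in response were called for 0 of the 7 at 2 h by limma with Benjamini-Hochberg adjustment (3 had an unadjusted p under 0.05), for Traf3 and Traf4 at 6 h and for Traf4 at 12 h. Beside the 8.41%, 19.5% and 32.5% of all genes called at these times, nothing is read from 0, 2 and 1 of 7.

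Traf1 is an adaptor without a RING domain that binds Traf2 and is itself induced by NF-κB. In control cells its log2 level was 7.95 and 7.78 at 0 h, 10.75 and 10.45 at 2 h, 11.16 and 11.20 at 6 h, then 10.88 and 11.15 at 12 h. With Akti1/2 it was 8.09 and 7.75 at 0 h, 10.00 and 10.17 at 2 h, 11.04 and 10.92 at 6 h, then 11.22 and 11.27 at 12 h. All stimulated arrays of both courses stood above all 0 h arrays. Traf1 rose 6.62-fold, 9.94-fold and 8.85-fold in control cells, and 4.49-fold, 8.34-fold and 10.0-fold with Akti1/2 (adjusted p of 1.67e-06 or lower, limma). The difference in response was -0.56, -0.25 and 0.18 and was not called (adjusted p of 0.114, 0.434 and 0.556, limma), with 95% intervals of -1.02 to -0.11, -0.71 to 0.20 and -0.28 to 0.63. At 2 h the level with Akti1/2 differed by -0.51 (SE 0.15, adjusted p = 0.0231, limma), a call lost without replicate 1 of the 2 h control or of the 2 h Akti1/2 cells (adjusted p 0.114 to 0.174). From 2 to 12 h the level rose by 1.16 with Akti1/2 (adjusted p = 6.03e-05, limma), while the 0.42 in control cells was not called (adjusted p = 0.0522) but was without replicate 1 at 2 h (0.57, adjusted p = 0.0358).

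Traf3 keeps the kinase NIK low and so restrains the alternative NF-κB pathway. Control arrays read 7.59 and 7.66 at 0 h, 8.63 and 8.29 at 2 h, 8.83 and 8.72 at 6 h, then 8.66 and 8.69 at 12 h. The Akti1/2 arrays read 7.69 and 7.73 at 0 h, 8.13 and 8.04 at 2 h, 8.24 and 8.31 at 6 h, then 8.33 and 8.45 at 12 h. The control arrays were the higher at each stimulated time without overlap. Traf3 rose 1.78-fold, 2.22-fold and 2.06-fold in control cells and 1.29-fold, 1.48-fold and 1.60-fold with Akti1/2. Its difference in response was -0.58 at 6 h (SE 0.17, adjusted p = 0.0300, limma) and was not called at 2 h (-0.46, adjusted p = 0.107) or 12 h (-0.36, adjusted p = 0.119). The 2 h value became -0.63 and was called without control replicate 2 at 2 h, at the edge of the threshold (limma). The 6 h call was lost with any array of the 0 h and 6 h groups left out except replicate 2 of the 6 h Akti1/2 cells (limma, adjusted p 0.0506 to 0.0939), and the 2 h rise with Akti1/2 (adjusted p = 0.0265) with any of its 4 arrays left out (adjusted p 0.0617 to 0.111).

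Traf4 differs from the other TRAFs in that it is best known from epithelial and developing tissues. The control course ran through log2 levels of 7.26 and 7.06 at 0 h, 7.40 and 7.39 at 2 h, 7.55 and 7.59 at 6 h, then 8.14 and 8.08 at 12 h. Under the inhibitor the level was 7.23 and 7.04 at 0 h, 6.96 and 7.14 at 2 h, 6.37 and 6.61 at 6 h, then 7.27 and 7.40 at 12 h. The control arrays at 12 h were the highest of the 16 and the Akti1/2 arrays at 6 h the lowest. Traf4 rose 1.94-fold at 12 h in control cells (adjusted p = 0.000136, limma) and fell 1.57-fold at 6 h with Akti1/2 (adjusted p = 0.00158). Between the 2 responses the difference was -1.06 at 6 h and -0.76 by 12 h (SE 0.17, adjusted p of 0.00148 and 0.00567, limma). The 1.33-fold rise in control cells at 6 h (adjusted p = 0.0263) was lost without replicate 2 at 0 h or either replicate at 6 h (adjusted p 0.0826 to 0.195, limma).

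Traf2, which recruits the ubiquitin ligases cIAP1 and cIAP2 to receptors, had a difference of -0.60 between Akti1/2-treated and control cells at 2 h (SE 0.12, adjusted p = 0.00339, limma) and of -0.38 at 12 h (adjusted p = 0.0194). It rose by 0.50 and 0.48 at 6 and 12 h in control cells, and with Akti1/2 it fell by 0.42 at 2 h and rose by 0.49 at 6 h (adjusted p of 0.00834, 0.0102, 0.0162 and 0.00807). The 12 h difference was lost without replicate 2 of the control or replicate 1 of the Akti1/2 cells (adjusted p 0.116 to 0.133). Without replicate 2 at 0 h the rises in control cells and the rise with Akti1/2 were lost, the former also without replicate 1 at 6 h or replicate 2 at 12 h, and the fall was lost without replicate 1 at 0 h or at 2 h (adjusted p 0.0654 to 0.110 in all of these, limma).

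Traf5, a close relative of Traf2, was above background on 4 arrays, among them both control arrays at 12 h, where it was at least 1.87-fold higher than with Akti1/2 (adjusted p = 0.00269, limma) and at least 1.76-fold higher than at 2 h (adjusted p = 0.000295). Against 0 h it was 1.80-fold higher at 12 h in control cells (adjusted p = 0.0101, limma), a call lost without replicate 1 at 0 h or replicate 2 at 12 h (adjusted p 0.0544 to 0.0651). Traf6, which also serves interleukin-1 and Toll-like receptors, was lower with Akti1/2 at 2 and 6 h than at 0 h by 0.43 and 0.42 (adjusted p of 0.0141 and 0.0168, limma), and higher than in control cells at 12 h by 0.35 (adjusted p = 0.0301). The first was lost without replicate 2 at 0 h or replicate 1 at 2 h, the second without replicate 2 at 0 h or at 6 h, and the third without any 1 of its 4 arrays (adjusted p 0.0546 to 0.148). Traf7 was not called in any of the 15 comparisons and ran from 5.89 to 6.45 over the 16 arrays.

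**Figure D5:**
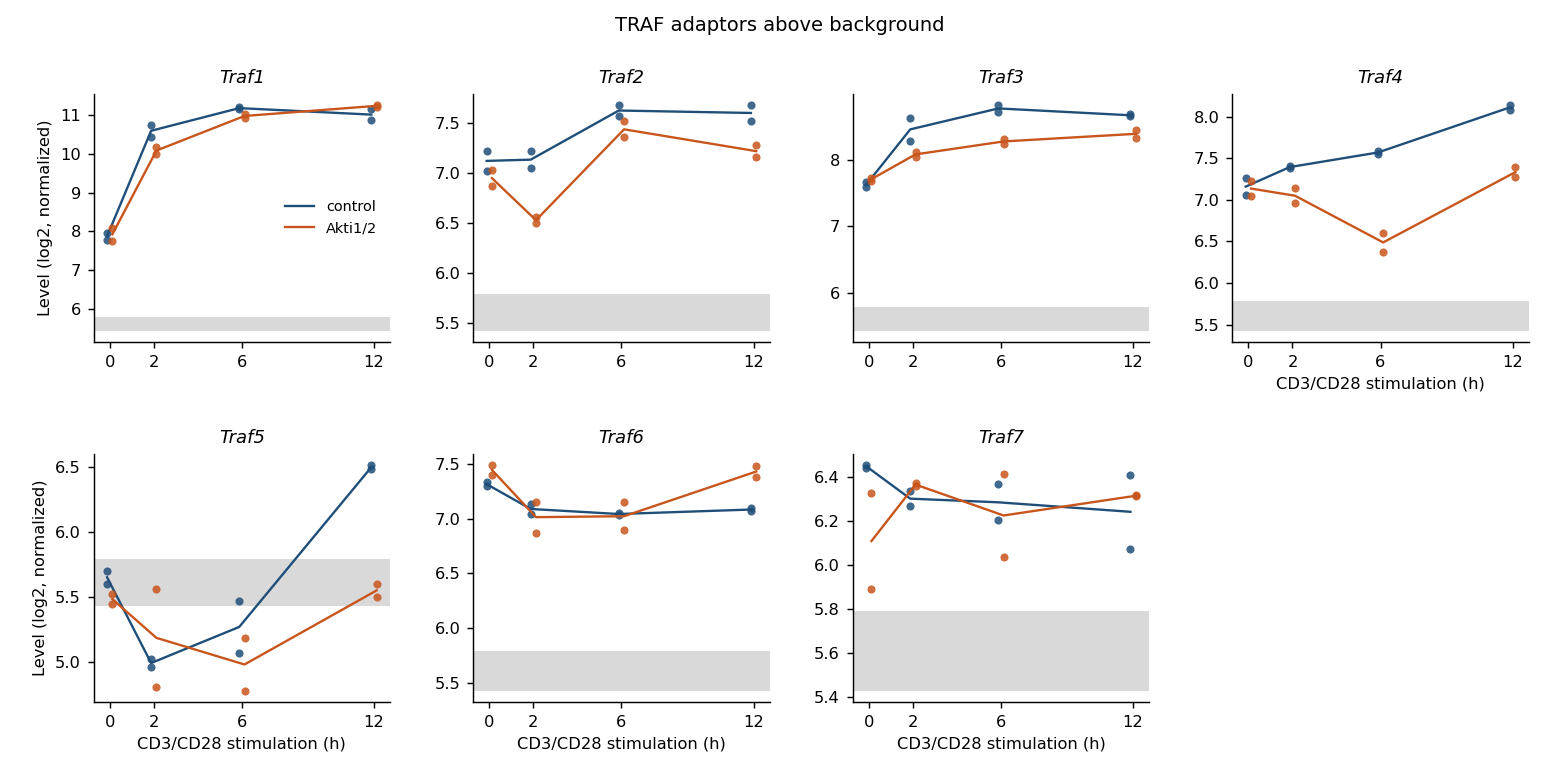
Log2 level of the 7 TRAFs by hours of CD3/CD28 stimulation, control cells in blue and Akti1/2-treated cells in orange, with single arrays as points, the mean of 2 as lines and the lowest level above background on each array as a gray band. Traf1 rises in both courses, Traf3 rises less with Akti1/2, and Traf4 is the lower with Akti1/2 at 6 and 12 h.

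From 2 to 12 h, 9 of the 14 members above background on every array were called in control cells, 4 of them higher and 5 lower (28.3% of all genes called, 14.5% higher and 13.8% lower), and 10 with Akti1/2, 7 higher and 3 lower (49.5%, 25.2% and 24.3%). In control cells Ltb, Tnf, Tnfsf11, Tnfsf13b and Tnfrsf10b were lower at 12 h than at 2 h, Tnfsf11 losing its call without any 1 of the 4 arrays (adjusted p 0.0862 to 0.161, limma), whereas Tnfrsf18 rose by 1.34 and Traf4 by 0.72 (adjusted p of 3.56e-05 and 0.00108, limma). With Akti1/2, Tnfsf11 fell by 0.79 and Tnfrsf18 rose by 1.29 over the same time (adjusted p of 0.00098 and 2.03e-05). Over the 23 tested, 15 were called in control cells. Fewer members, and also fewer of all genes, were called without replicate 2 at 2 h or without replicate 1 at 12 h. Among the calls that no left-out array ended, Fas rose by 1.58 and Tnfrsf26 by 1.09 with Akti1/2 (adjusted p of 7e-06 and 0.00134, limma), and Tnfsf10 by 1.25 in control cells (adjusted p = 0.00142).

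The proteins that carry the signal inside the cell were looked at on a list of 43 genes (death domain adaptors, RIP kinases, caspases, cIAPs, the TAK1 and IκB kinase complexes, linear ubiquitin ligases and A20 with its partners), of which 34 were on the arrays and 30 were tested. In control cells 5 of the 30 were called at 2 h, 6 at 6 h and 9 at 12 h against 0 h, beside 10.3%, 27.5% and 27.8% of all genes. Leaving out 1 array gave 3 to 4, 4 to 6 and 5 to 7 calls, with 3 at 2 h without either 0 h replicate or replicate 1 at 2 h, and 5 at 12 h without either 0 h replicate. Akti1/2-treated cells differed from control cells in 8 at 2 h (6 higher), 12 at 6 h (10 higher) and 15 at 12 h (11 higher), beside 28.4%, 37.5% and 49% of all genes (13.6%, 18.8% and 24.2% higher). These became 3 to 6, 9 to 13 and 10 to 15, and at 2 h 4 without replicate 1 of the Akti1/2 cells and 5 and 3 without replicate 1 and 2 of the control cells. Differences in response were called for 0 at 2 h by limma with Benjamini-Hochberg adjustment (6 had an unadjusted p under 0.05), 8 at 6 h (6 above 0) and 10 at 12 h (8 above 0), beside 8.41%, 19.5% and 32.5% of all genes (4.25%, 10.3% and 16.3% above 0). With 1 array left out these were 0 to 1, 2 to 8 and 6 to 7. At 6 h 5 or fewer were left without any 1 of the 8 arrays except replicate 1 of the Akti1/2 cells at 6 h, with 2 without replicate 2 of the 0 h Akti1/2 cells, and at 12 h 6 were left without replicate 1 of the 0 h control or of the 12 h Akti1/2 cells. Nothing is read from these counts about the list. The median difference in response of the 30 was 0.15, 0.00 and 0.09, beside -0.01, -0.01 and -0.02 over all genes tested.

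Tnfaip3, which encodes A20, the ubiquitin-editing brake on NF-κB, rose by 3.28, 2.49 and 2.15 in control cells at 2, 6 and 12 h and by 3.29, 2.44 and 2.22 with Akti1/2 (log2 differences). It was higher with Akti1/2 at each of these times, by 1.01, 0.96 and 1.07 (SE 0.21, adjusted p of 0.0046, 0.00364 and 0.00111, limma), and by 1.00 at 0 h, where it was not called. Its partner Tnip1 rose by 1.12 and 0.88 at 6 and 12 h in control cells, and its difference in response was 0.94 at 12 h (SE 0.18, adjusted p = 0.00215, limma). Birc2, which encodes cIAP1, had a difference in response of 0.84 at 6 h and 0.90 at 12 h (SE 0.17, adjusted p of 0.00481 and 0.00175, limma). Tnfaip8l2, an inhibitory relative of Tnfaip8, fell by 1.42 and 1.10 at 6 and 12 h in control cells, and its difference in response was 1.15 and 0.89 (SE 0.23, adjusted p of 0.00429 and 0.00988, limma). Below 0 at 12 h were Casp8, the initiator caspase of death receptors (-0.53, SE 0.14, adjusted p = 0.00998, limma), and its substrate Bid (-0.63, SE 0.20, adjusted p = 0.0302). The Bid call was lost with each array left out except replicate 1 of the 0 h Akti1/2 and replicate 1 of the control cells at 12 h. It was also lost with quantile normalization without background correction, with scaling to the same mean and without the filter on dim genes. Bid was also called at 6 h. That call was lost without control replicate 1 or Akti1/2 replicate 2 at 0 h, and with scaling to the same mean. The genes named here are not all that were called on the list. Among the others, the 12 h call of Trafd1 was kept under every alternative.

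The J5 score used by the study is the difference of 2 group means of intensities scaled to the same 95th percentile, divided by the mean size of that difference over all genes. It has no error term, gives no p-value and leans to bright genes. The study's text states a threshold of 20 for 2 h, says that thresholds were chosen per time, and compares stimulated with unstimulated cells. Here 20 was used at every time and also between treatments. Scores over 20 in control cells against 0 h were reached by Traf1, Ltb and Tnf at 2 h, by these and Tnfrsf18 at 6 h, and by Traf1 and Tnfrsf18 at 12 h. With Akti1/2 they were reached by no member at 2 h, by Traf1 at 6 h and by Traf1 and Tnfrsf18 at 12 h. Between Akti1/2-treated and control cells, Tnf at 2 h was the 1 member whose score passed 20 in size, lower with Akti1/2. Tnfsf14, Tnfsf9, Lta and Fas, whose log2 changes are among the largest here but whose intensities are lower, did not pass 20 in any of these comparisons.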

How the data were processed

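RNA of 16 D10 samples was hybridized to Illumina mouse RefSeq bead arrays. The deposited intensities are on a linear scale, and the authors exported them with neither normalization nor background subtraction. Groups were taken from the sample labels. Intensities of 18138 genes and 798 negative controls were background-corrected, quantile-normalized and logged with neqc of limma 3.58.1 (offset 16, R 4.3.3). Genes above background (detection p under 0.01) on at least 2 arrays were tested, 7395 in all. limma was fitted over the 8 groups (8 residual degrees of freedom), with Benjamini-Hochberg adjustment within each of 15 contrasts and calls at an adjusted p under 0.05. Members with a called difference in response, or called in control cells against 0 h with a log2 change of at least 1, are given on every array, and the other members by their called contrasts. Members and gene lists were chosen with earlier results of these data known. The code was tested on simulated data. Alternatives were 2 other normalizations, 2 other filters, a replicate or chip block, a fit of the compared groups alone and leaving out each array. Duplicate arrays limit the precision. A second control table, with the same values for 15 arrays, was not used.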

Additional observations from a re-analysis of the deposited data

Results flagged for a closer look

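The values below are those for which the change since 0 h was not the same with and without Akti1/2 by the test of that difference itself (limma, adjusted over 7395 genes). At 2 h the log2 differences in response were -1.86 for Lta, -1.27 for Ltb, -2.56 for Tnf, -1.27 for Tnfsf11, -0.69 for Tnfsf13b, -2.21 for Tnfsf14, -2.47 for Tnfsf9 and -1.07 for Tnfrsf12a. These are 7 ligands and 1 receptor, all below 0, beside 4.16% of all genes called below 0. Lta, Tnfsf9, Tnfsf14 and, at 12 h, Tnfsf10 entered the test through stimulated groups. Among members above background on every array, the 2 h values are those of 4 ligands and 1 receptor. At 6 h they were -0.58 for Traf3, -1.06 for Traf4, -2.01 for Lta, -0.95 for Ltb, -2.18 for Tnf, -1.16 for Tnfsf11, -2.62 for Tnfsf14, -2.53 for Tnfsf9, -0.77 for Fas, -2.16 for Tnfrsf12a and 1.53 for Tnfrsf26. At 12 h they were -0.76 for Traf4, -2.03 for Lta, -1.41 for Tnf, -1.01 for Tnfsf10, -1.6 for Tnfsf11, -2.48 for Tnfsf14, -2.42 for Tnfsf9, -1.24 for Tnfrsf12a, -1.14 for Tnfrsf13c and 1.77 for Tnfrsf26. The values for Tnfsf13b at 2 h, Traf3 and Fas at 6 h and Tnfsf10 at 12 h lost their call when single arrays were left out. Tnfrsf13c was above background in 1 of the 8 groups only, through which it entered the test.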

How the results depend on the processing

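Of 186 calls of members over 15 comparisons, 135 were kept under every alternative that gave a value, 136 with each array left out and 155 under all other settings, and none changed sign. With only genes above background on all 16 arrays tested, 14 members were left by construction. In control cells 8, 9 and 11 of them were called at 2, 6 and 12 h, beside 748, 1762 and 1864 of all 5544 genes. In Akti1/2-treated cells 9 and 8 were called at 6 and 12 h, beside 2161 and 2877 genes. Between treatments 7 and 8 were called at 6 and 12 h, beside 2442 and 3119 genes. For the difference in response 5, 6 and 5 were called at 2, 6 and 12 h, beside 665, 1412 and 2197 genes. With 1 array left out, Akti1/2-treated cells at 2 h had fewer calls, both among the members and over all genes. Control cells at 12 h against 2 h then had as many or fewer among the members, and fewer over all genes. The replicate block lost 3 of the 186 calls and left the difference in response at 8, 11 and 10 calls. To look for pairing, the deviations of replicate 1 from its group mean were correlated between groups over the genes tested. Over 28 pairs of groups the correlation of these deviations was -0.296 to 0.264, over 0.1 in 7 of them. Same-numbered arrays were not taken as paired, although replicate 1 lay on the same chip in 7 of the 8 groups (not in control cells at 12 h). The chip block also lost 3 calls. Of values not called in the main setting, some turned sign with 1 array left out: Fas in the difference in response at 12 h (-0.00119 to 0.56), Tnfrsf10b between treatments at 2 h (-0.48 to 0.23), Tnfsf9 with Akti1/2 at 2 h against 0 h (-0.0399 to 0.685), and Traf5 with Akti1/2 at 2 h against 0 h (-0.674 to 0.0793), at 12 h against 2 h (-0.0121 to 0.741) and between treatments at 2 h (-0.18 to 0.57). Scaling to the same mean moved the median of all genes by over 0.1 for the difference in response at 6 h, from -0.01 to 0.12, and at 12 h, from -0.02 to 0.08. Levels near background limit Lta, Tnfsf9, Tnfsf10, Fas, Tnfrsf11a, Tnfrsf13c, Tnfrsf26 and Traf5.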
